A study of Homo sapiens with 3 samples.

Results

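The 36 genes described here carry out or control the synthesis of cholesterol and fatty acids in A549 cells, a human lung adenocarcinoma line. They were set as a list of symbols for their roles, with earlier results of these data known, and comprised 20 enzymes of the route from acetyl-CoA units to cholesterol (the sterol route), 4 genes of the sterol sensor and transcription factor SREBP, 4 genes of sterol transport and lipoprotein uptake, and 8 genes of fatty acid synthesis. All 36 had a probe, out of 22431 named genes on the array, and together they were read by 42 of 58191 probes. For each gene the probe with the highest mean signal was used. 35 of the 36 genes were well above background on all 3 arrays, and SC5D was not on the cordyceps array.

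Total RNA came from 3 cultures kept for 48 h, one with 0.1% DMSO (control), one with 60 µg/mL cordycepin and one with 100 µg/mL cordyceps. The labels give DMSO for the control only and do not say whether the treated cultures held it. Cordycepin is an adenosine analogue made by Cordyceps fungi, and the labels do not say how the cordyceps was prepared. The medium of all cultures contained 10% fetal bovine serum, 16.7 µM zinc sulfate, 10 µM troglitazone, which activates the fat cell nuclear receptor PPARγ, and 10 mM nicotinamide. Each condition was read on 1 single-colour Agilent array, so no difference between conditions has a replicate check, and no test, error or p-value is given. In a bulk culture, fewer cells of a kind and less RNA per cell cannot be told apart.

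Signals are given scaled, so that every array has the 75th percentile of the control array (260 units), and ratios are log2 differences of the same probe between arrays. As a yardstick of technical error, the log2 ratio of a gene read by a second probe differed with an SD per probe of 0.37 for cordycepin over control (3671 genes) and 0.35 for cordyceps over control (3414 genes). Probes printed 10 times on an array had a median SD of 0.05 to 0.06 on the log2 scale between their spots. Neither value holds the spread between cultures. On the cordyceps array, 11.2% of the spots in one corner had an outlying local background, against 3.16% elsewhere on it and 0% in the same corner of the other arrays. The probes of 9 of the 36 genes lie in that corner (ACAT2, MVK, MVD, SQLE, CYP51A1, EBP, SREBF1, ACACA and FADS2), and the probes of SREBF1 and ACACA are themselves among those outlying spots. The keratin genes KRT7, KRT8, KRT18 and KRT19 and the adhesion genes EPCAM and CDH1, markers of epithelial cells, were well above background on all 3 arrays. The leukocyte gene CD3E, the endothelial gene PECAM1 and the fibroblast gene COL3A1 were not on any array. Other markers of these cell types had signal: PTPRC of leukocytes had 99.5, 83.3 and 72.8 units on the control, cordycepin and cordyceps arrays, COL1A1 of fibroblasts had 337, 277 and 207, and CDH5 of endothelium had 61.3 and 66.7 on the control and cordycepin arrays and was not well above background on the cordyceps array. Their part in the values below was not tested.

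Cells make cholesterol through mevalonate and squalene. When sterols in the endoplasmic reticulum are scarce, the escort protein SCAP carries the SREBP precursors to the Golgi, where proteases release the active factors, and when sterols are plentiful INSIG proteins hold SCAP back. SREBP-2, from SREBF2, acts chiefly on the sterol route, and SREBP-1, from SREBF1, chiefly on fatty acid synthesis. Oxysterols activate the nuclear receptors LXR, which switch on the exporters ABCA1 and ABCG1. SREBPs bind sterol regulatory elements and commonly work together with the factor NF-Y, which binds CCAAT boxes.

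Because so many of the enzymes are known targets of the same factors, their promoters were searched for both kinds of letters. RefSeq windows (GRCh38.p14) from 250 bases before to 50 bases after the gene start were held for 31 of the 36 genes. ACAT2, FDFT1, SQLE, ABCG1 and FASN had no entry. The CCAAT letters, on either strand, stood in 12 of the 17 sterol route promoters (70.6%), in 3 of the 7 fatty acid promoters (42.9%) and in 35.7% of all 27305 promoters. At least 2 copies were found in 9 of the 17 sterol route promoters (52.9%) and in 11.3% of all promoters. The sterol regulatory element form TCACNCCAC, on either strand, was found in 1 of the 31 promoters, that of SREBF2, and in 1.15% of all promoters. A match is a description of the letters and not a binding site, and promoters without these letters may hold other forms.

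The stretches below are shown because they belong to 4 genes at least 2-fold higher on the cordycepin array, with CCAAT or its reverse complement ATTGG in capitals, and to SREBF2, where the sterol regulatory element form is in capitals too. They are upstream of the gene start and are written 5′ to 3′ on the strand of the gene. HMGCS1 lies at chr5:43313498-43313577 (minus strand), MSMO1 at chr4:165327474-165327649 (plus strand), STARD4 at chr5:111512651-111512706 (minus strand), INSIG1 at chr7:155297698-155297722 (plus strand) and SREBF2 at chr22:41832962-41833013 (plus strand).
HMGCS1: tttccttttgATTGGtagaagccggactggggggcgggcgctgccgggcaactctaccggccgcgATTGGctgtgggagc
MSMO1: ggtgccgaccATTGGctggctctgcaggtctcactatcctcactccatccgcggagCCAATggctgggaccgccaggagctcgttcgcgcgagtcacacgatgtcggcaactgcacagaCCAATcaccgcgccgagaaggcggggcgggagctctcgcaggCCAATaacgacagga
STARD4: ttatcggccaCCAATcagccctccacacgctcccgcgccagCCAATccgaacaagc
INSIG1: ccggcctcccATTGGttgcggccgc
SREBF2: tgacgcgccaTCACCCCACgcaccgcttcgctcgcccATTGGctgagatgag
The HMGCS1 stretch runs from 165 to 86 bases before the start and holds 2 copies, and the MSMO1 stretch, from 195 to 20 bases before it, holds 4. The STARD4 stretch holds 2 copies, and INSIG1 has 1. In SREBF2 the sterol regulatory element form and 1 ATTGG stand in the same stretch of 52 bases. Copies and ratios often did not go together. Of the 9 sterol route genes with at least 2 copies, only HMGCS1 and MSMO1 were at least 2-fold higher after cordycepin. MVK and NSDHL, with 5 copies each, and MVD, FDPS and EBP, with 3 each, were not. Neither were HSD17B7 and DHCR7, with 2 each, and MYLIP, with 2, was 1.81-fold lower. Of the other genes at least 2-fold higher after cordycepin with a promoter entry, IDI1 had 0 copies and TM7SF2 had 1.

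The first comparison asked how these genes differed after cordycepin. Most sterol route enzymes were higher on the cordycepin array than on the control array. Fatty acid synthesis genes lay close to the control, and the sterol exporters ABCA1 and ABCG1 were lower. The median log2 ratio was 0.61 over the 20 sterol route enzymes, -0.08 over the 8 fatty acid genes, -0.82 over the 4 transport and uptake genes and -0.05 over the 4 SREBP genes. Over all 14598 named genes measured on both arrays it was -0.05. Of the 36 genes, 9 were higher by 2-fold or more and 2 were lower to that degree (4 and 5 with arrays scaled by their medians). Over all 15742 named genes that could be called in this comparison, the shares were 5.96% higher and 3.59% lower. The 9 higher genes included 7 of the 20 sterol route enzymes (35%). None of those 20 was at least 2-fold lower, which for a group of this size is close to 3.59%. At 1.5-fold, 12 of the 20 were higher and 1 was lower, against 13.4% and 11.9% of all named genes.

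**Figure D1:**
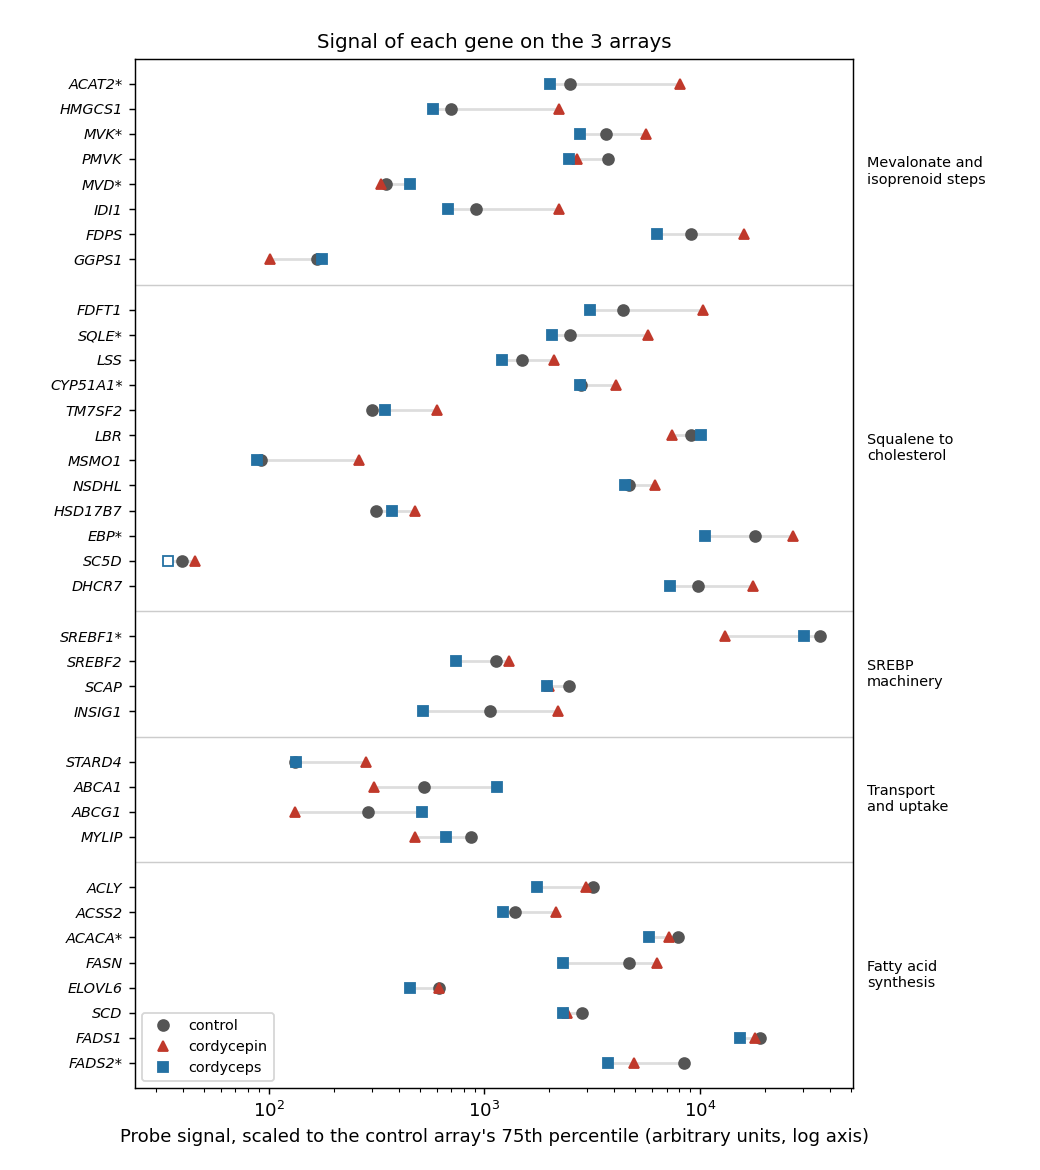
Signal of each of the 36 genes (rows, grouped by role) on the control, cordycepin and cordyceps arrays, 1 array each, scaled to the control array's 75th percentile on a log axis. An asterisk marks a probe in the corner with outlying background on the cordyceps array, and the open square (SC5D, 34.0 units) a signal not well above background. HMGCS1 stood at 699, 2222 and 575 units on the 3 arrays in that order. Levels of different genes come from different probes and are not comparable.

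Among the early steps, ACAT2, the thiolase that joins acetyl-CoA units in the cytosol, had 2501 units with DMSO, 8100 with cordycepin and 2009 with cordyceps. HMGCS1, the HMG-CoA synthase, had 699, 2222 and 575 units in the same order. The cordycepin array was thus the high one for both, by 3.24-fold for ACAT2 (log2 1.70) and 3.18-fold for HMGCS1 (log2 1.67), which placed them 148th and 160th from the top of 14598 named genes. IDI1, the isomerase of isopentenyl diphosphate, had 912 units in control cells, 2210 after cordycepin and 681 after cordyceps. It was 2.42-fold higher after cordycepin (log2 1.28). FDPS, which makes farnesyl diphosphate, had 9042, 16032 and 6314 units and was 1.77-fold higher (log2 0.83), and MVK, the mevalonate kinase, had 3651, 5600 and 2782 units and was 1.53-fold higher (log2 0.62).

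The other 3 genes of this stretch were not higher. MVD, the mevalonate diphosphate decarboxylase, had 350 units with DMSO, 331 with cordycepin and 451 with cordyceps (log2 -0.08 for cordycepin over control). PMVK, the phosphomevalonate kinase between MVK and MVD, had 3760, 2698 and 2468 units (log2 -0.48). GGPS1, which leads away from cholesterol to the geranylgeranyl groups that anchor small GTPases, had 167, 102 and 177 units. It was 1.65-fold lower after cordycepin (log2 -0.72), the lowest ratio among the 20 enzymes.

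From squalene on, 11 of the 12 enzymes lay above the control on the cordycepin array, and 4 were at least 2-fold higher. FDFT1, the squalene synthase, had 4394 units in control cells, 10302 after cordycepin and 3074 after cordyceps (2.34-fold, log2 1.23). SQLE, the squalene epoxidase and a rate-controlling step, had 2495, 5766 and 2057 units (2.31-fold, log2 1.21). MSMO1, the sterol methyl oxidase whose promoter stretch holds 4 CCAAT copies, had 91.9, 262 and 88.2 units (2.85-fold, log2 1.51). This probe was dim, and with a model-based background correction (normexp) its log2 ratio was 1.14. TM7SF2, a sterol reductase, had 299.8 units with DMSO, 603 with cordycepin and 346 with cordyceps, and at 2.01-fold it was the gene just past the threshold.

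DHCR7, the last reductase of one branch, had 9780, 17547 and 7289 units and was the enzyme just short of 2-fold (1.79-fold, log2 0.84). EBP, the sterol isomerase, had 17929, 26956 and 10529 units (log2 0.59), and CYP51A1, the lanosterol demethylase, had 2797, 4099 and 2779 units (log2 0.55). NSDHL, a sterol dehydrogenase, had 4679, 6157 and 4467 units (log2 0.40). SC5D, a desaturase, was dim, with 39.7 units in control cells, 45.3 after cordycepin and 34.0 after cordyceps, where it was not well above background. Its log2 ratio for cordycepin over control, 0.19, changed sign with the scaling (-0.07 with arrays scaled by their medians).

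LBR, which holds a sterol reductase domain but is better known as a nuclear envelope protein, was the one enzyme of this stretch below the control. It had 9129 units with DMSO, 7380 with cordycepin and 10082 with cordyceps (log2 -0.31). Its paralogue in the same step, TM7SF2, differed in the other direction, as given above.

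More than 1 probe read LSS and HSD17B7. LSS, the lanosterol synthase, had 1490, 2098 and 1202 units with the brighter probe (log2 0.49 for cordycepin over control) and 117, 362 and 146 units with the other (log2 1.63). Both LSS probes were highest on the cordycepin array, but the size differed by 1.13 on the log2 scale. The technical spread was 0.37 per probe, and that of both probes enters this difference. HSD17B7, a ketosterol reductase, had 314, 477 and 374 units (log2 0.60), and its further probes gave log2 ratios of 0.60 and 1.08. Leaving out the 6 sterol route probes in the corner gave a median of 0.71 for the remaining 14 enzymes.

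**Figure D2:**
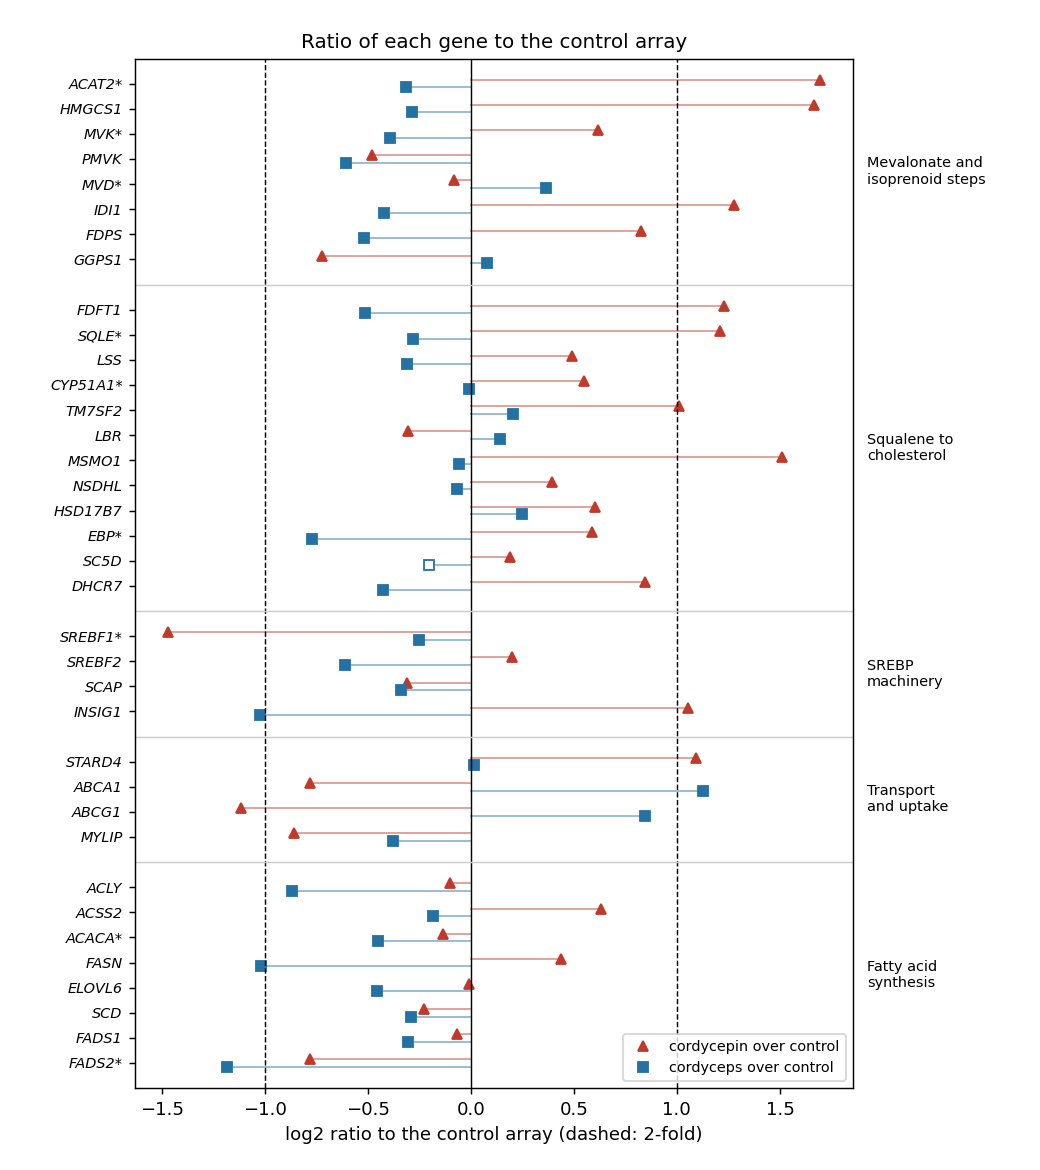
log2 ratio of each of the 36 genes to the control array for cordycepin (triangles) and cordyceps (squares), 1 array per condition and both against the same control array. Dashed lines mark 2-fold, an asterisk a probe in the corner with outlying background on the cordyceps array, and the open square a bound. Triangles of 16 of the 20 sterol route enzymes lie above 0, and squares of all 8 fatty acid genes below 0. With median scaling, SC5D (-0.07) and SREBF2 (-0.06) after cordycepin lie on the other side of 0. So do CYP51A1 (0.26), MSMO1 (0.21), NSDHL (0.20), ACSS2 (0.09) and SREBF1 (0.02) after cordyceps.

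Among the SREBP genes, INSIG1, which retains the SREBP precursors and is itself an SREBP target, had 1058 units in control cells, 2195 after cordycepin and 521 after cordyceps. It was 2.07-fold higher after cordycepin (log2 1.05) and 2.03-fold lower after cordyceps (log2 -1.02), so that the treated arrays stood on opposite sides of the control. SREBF2, whose promoter stretch holds the sterol regulatory element form, had 1126, 1295 and 738 units, with a log2 ratio for cordycepin of 0.20 (-0.06 with median scaling). SCAP had 2463, 1990 and 1951 units and a log2 ratio of -0.31.

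SREBF1 had 36128 units with DMSO, 13042 with cordycepin and 30370 with cordyceps with its brighter probe, and was 2.77-fold lower after cordycepin (log2 -1.47). Its second probe had 456, 414 and 862 units, with log2 ratios of -0.14 for cordycepin and 0.92 for cordyceps over control. The probes therefore disagreed by 1.33 in the cordycepin comparison and by 1.17 in the cordyceps comparison. The technical spread was 0.37 and 0.35 per probe, and the spread of both probes enters such a difference. Both probes lie in the corner. Which of them reflects the transcript was not tested, and the 2-fold call of SREBF1 rests on 1 probe.

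The transport and uptake genes did not follow one direction. STARD4, a carrier of sterol between membranes and a known SREBP target, had 132 units in control cells, 281 after cordycepin and 133 after cordyceps, and was 2.13-fold higher after cordycepin (log2 1.09, and 0.71 with normexp). ABCG1, a sterol exporter, had 287, 133 and 515 units and was 2.16-fold lower (log2 -1.11). ABCA1, which loads cholesterol onto apolipoproteins, had 527, 307 and 1148 units and was 1.72-fold lower (log2 -0.78), and a second, dimmer probe gave -0.73. MYLIP, the ubiquitin ligase that marks lipoprotein receptors for breakdown, had 867, 478 and 667 units and was 1.81-fold lower (log2 -0.86). ABCA1, ABCG1 and MYLIP are known LXR targets, and they kept this direction after cordycepin under each scaling tried. Of the 9 measured genes on the LXR list given below, 7 were below the control after cordycepin and 2 above it. ABCG4 was one of those above (log2 1.06). After cordyceps MYLIP was below the control (log2 -0.38), while ABCA1 and ABCG1 were above it. The part of LXR was not tested.

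Fatty acid synthesis genes had no 2-fold ratio to the control after cordycepin. ACSS2, which makes acetyl-CoA from acetate, had 1384, 2146 and 1218 units on the control, cordycepin and cordyceps arrays, and a log2 ratio for cordycepin of 0.63. FASN, the fatty acid synthase, had 4678, 6338 and 2313 units (log2 0.44). FADS2, a desaturase, had 8456, 4923 and 3726 units and was 1.72-fold lower (log2 -0.78). The other 5 lay within 0.23 of 0 on the log2 scale. ACLY, which supplies cytosolic acetyl-CoA from citrate, had 3184, 2968 and 1745 units (log2 -0.10), and SCD, which makes monounsaturated fatty acids, had 2830, 2414 and 2314 units (log2 -0.23). These are small beside the technical spread of 0.37. FADS1, the other front-end desaturase of the pair, had 18905, 18031 and 15324 units (log2 -0.07), and the elongase ELOVL6 had 617, 613 and 449 units (log2 -0.01), and both changed sign with the scaling. ACACA, the acetyl-CoA carboxylase that commits carbon to fatty acids, had 7900, 7193 and 5788 units (log2 -0.14), and a second probe outside the corner gave 0.28. The sterol route median exceeded the fatty acid median by 0.69 on the log2 scale in this comparison.

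The second comparison asked how the genes differed after cordyceps. Here no sterol route enzyme reached 2-fold, which for a group of this size is close to the shares of all named genes given below. The 8 fatty acid genes were all below the control (7 of them under every scaling tried), and the exporters ABCA1 and ABCG1 were above it. The median log2 ratio was -0.28 over the 19 sterol route enzymes measured on both arrays, -0.45 over the 8 fatty acid genes, -0.47 over the 4 SREBP genes and 0.43 over the 4 transport and uptake genes, against -0.11 over 13887 named genes. Of the 36 genes, 1 (ABCA1) was higher by 2-fold or more, and 3 (INSIG1, FASN and FADS2) were lower to that degree. Over all 14899 named genes that could be called, the shares were 4.36% higher and 3.30% lower. At 1.5-fold, 2 of the 36 were higher and 7 lower, against 8.69% and 13.1% of all named genes. With arrays scaled by their medians, the median of all named genes was 0.16 and that of the sterol route -0.01. The sterol route's difference from the control thus depended on the scaling, and at -0.01 no direction can be read from it. Measured from the median of all named genes, the sterol route stood at -0.18 with either scaling.

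**Figure D3:**
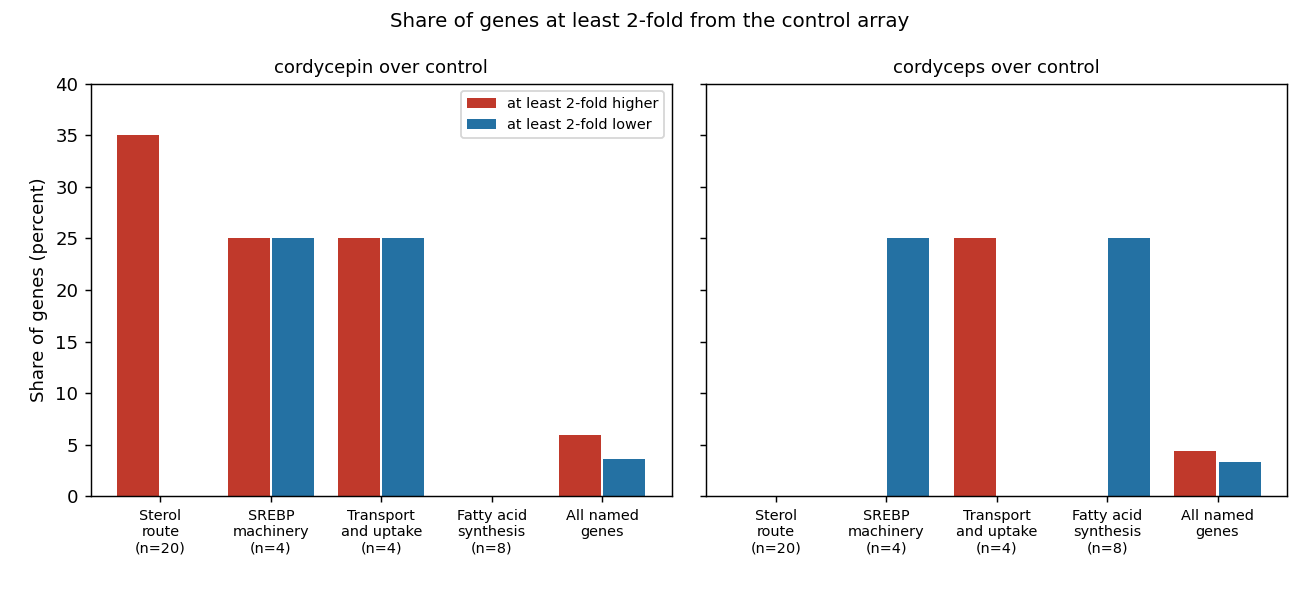
Share of genes (percent) at least 2-fold higher or lower than the control array, by role group and for all named genes, after cordycepin (left) and cordyceps (right), with 1 array per condition. Of the sterol route enzymes 35% were higher after cordycepin and 0% after cordyceps, against 5.96% and 4.36% of all named genes. For a group of this size 0% is close to 4.36%. Groups of 4 genes move in steps of 25%.

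FASN was 2.02-fold lower after cordyceps (log2 -1.02), and FADS2 2.27-fold lower (log2 -1.18). ACLY followed at 1.82-fold lower (log2 -0.87). ELOVL6 (log2 -0.46), ACACA (-0.45), FADS1 (-0.30), SCD (-0.29) and ACSS2 (-0.18) were lower by less than 1.5-fold, and ACSS2 was above the control with median scaling (0.09). Without the corner probes of ACACA and FADS2 the median of the 6 remaining fatty acid genes was -0.38. FASN and INSIG1 sat just past 2-fold, and with the corner left out before scaling their log2 ratios were -0.90 and -0.91. None of the 28 genes that kept a probe then passed the threshold in the lower direction, nor did any of the 36 with median scaling.

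In the sterol route, EBP had the lowest ratio after cordyceps (1.70-fold lower, log2 -0.77), and its probe lies in the corner. PMVK was 1.52-fold lower (log2 -0.61), FDPS and FDFT1 both had log2 ratios of -0.52, and IDI1 and DHCR7 both had -0.42. IDI1 and FDFT1 were among the enzymes at least 2-fold higher after cordycepin. Of the others, ACAT2 had a log2 ratio of -0.32 here, HMGCS1 and SQLE of -0.28, and MSMO1 of -0.06. MVK had a ratio of -0.39, LSS of -0.31 (0.32 with its second probe), NSDHL of -0.07 and CYP51A1 of -0.01. With median scaling MSMO1 (0.21), NSDHL (0.20) and CYP51A1 (0.26) were above the control. The enzymes with ratios above 0 were MVD with 0.37, HSD17B7 with 0.25, TM7SF2 with 0.21, LBR with 0.14 and GGPS1 with 0.08. SC5D was at least 1.15-fold lower, as a bound, and had no ratio with median scaling or normexp.

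ABCA1 was 2.18-fold higher after cordyceps (log2 1.12), and its second probe, with 76.6, 46.2 and 109 units on the control, cordycepin and cordyceps arrays, gave 0.51. ABCG1 was 1.79-fold higher (log2 0.84), the gene just short of the threshold. The exporters were thus low on the cordycepin array and high on the cordyceps array. MYLIP had a log2 ratio of -0.38 and STARD4 of 0.01. SREBF2 was 1.53-fold lower (log2 -0.61) and SCAP had a ratio of -0.34, while SREBF1 had -0.25 with its brighter probe, which was 0.02 with median scaling.

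Both comparisons share the control array, so their values are not independent. Set against each other without the control, the cordycepin and cordyceps arrays differed by a median log2 ratio of 1.01 over 19 sterol route enzymes, 0.43 over the 8 fatty acid genes and -1.19 over the 4 transport and uptake genes, and by 0.02 over all 13800 named genes. With median scaling the sterol route value was 0.48 and the fatty acid value -0.11, so the sign of the latter depended on the scaling. The agents and their doses differed, so these are values side by side. INSIG1 was 4.21-fold and ACAT2 4.03-fold higher on the cordycepin array, and ABCG1 (log2 -1.96) and ABCA1 (log2 -1.90) were the lowest.

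Further genes of lipid metabolism, taken from 6 lists, had medians after cordycepin that lay nearer to that of all named genes (-0.05) than the sterol route median did. Of 31 measured genes of sterol handling and SREBP control beside the 36, 8 lay above the control after cordycepin (median log2 -0.18). None was at least 2-fold higher, and 1 was lower, GRAMD1B, a carrier of plasma membrane cholesterol, with 658 units with DMSO, 271 with cordycepin and 457 with cordyceps (log2 -1.28). For a list of this size these counts are close to the shares of all named genes, 5.96% higher and 3.59% lower. After cordyceps the median of the 31 genes was -0.12, with no 2-fold call. The shares of all named genes were 4.36% higher and 3.30% lower, which is again close. Of 21 measured genes of fatty acid activation, elongation and desaturation (median -0.27 after cordycepin), ELOVL3, an elongase, had 28.6, 89.0 and 30.5 units and was higher after cordycepin (log2 1.64). On the cordyceps array it was not well above background. After cordyceps (median -0.30 over 20 genes), FADS3 was higher, with 276, 346 and 699 units (log2 1.34), and ACSS1, the mitochondrial acetyl-CoA synthetase read in the corner, was lower, with 2052, 1129 and 983 units (log2 -1.06).

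Of 15 measured genes that use isoprenoids for prenylation, dolichol and ubiquinone (median -0.37 after cordycepin and 0.11 after cordyceps), ICMT, which methylates prenylated proteins, was lower after both, with 442, 218 and 205 units (log2 -1.02 and -1.11). Glycerolipid synthesis genes had medians of -0.10 over 22 genes after cordycepin and -0.23 over 21 after cordyceps, with no 2-fold call. For a list of this size that is close to the shares of all named genes, 5.96% higher and 3.59% lower after cordycepin and 4.36% and 3.30% after cordyceps.

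The list of oxysterol enzymes, LXR and its targets had a median of -0.50 over 9 genes after cordycepin and -0.15 over 10 after cordyceps. ABCG4, a sterol transporter, was higher after cordycepin, with 138 units on the control array and 289 and 127 with cordycepin and cordyceps (log2 1.06). CYP27A1, which makes an oxysterol, had 78.3, 122 and 165 units (log2 1.08 for cordyceps). NCOA5, a coactivator read in the corner, had 35.8, 23.6 and 166 units (log2 2.21 for cordyceps). The NCOA5 signal was dim on the control array and not well above background on the cordycepin array. Outside the naming rule, and named after its value was seen, CH25H, which makes another oxysterol and is also read in the corner, was well above background only on the cordyceps array (126 units) and was at least 6.60-fold higher there than in the control. The corner's part in the NCOA5 and CH25H values was not tested.

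PPAR targets, listed together with the genes of the PPAR receptors themselves, had medians of -0.38 after cordycepin and -0.25 after cordyceps. These are over 14 measured genes, receptors included, all in cells kept with troglitazone. PDK4, the kinase that shuts down pyruvate dehydrogenase, had 17562 units in control cells, 7968 after cordycepin and 8362 after cordyceps (log2 -1.14 and -1.07). ANGPTL4, an inhibitor of lipoprotein lipase, had 12454, 7367 and 3223 units (log2 -0.76 and -1.95). Both were highest on the control array. PLIN2, a lipid droplet coat protein read in the corner, had 569, 311 and 1141 units and differed from them, with log2 ratios of -0.87 for cordycepin and 1.00 for cordyceps.

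**Figure D4:**
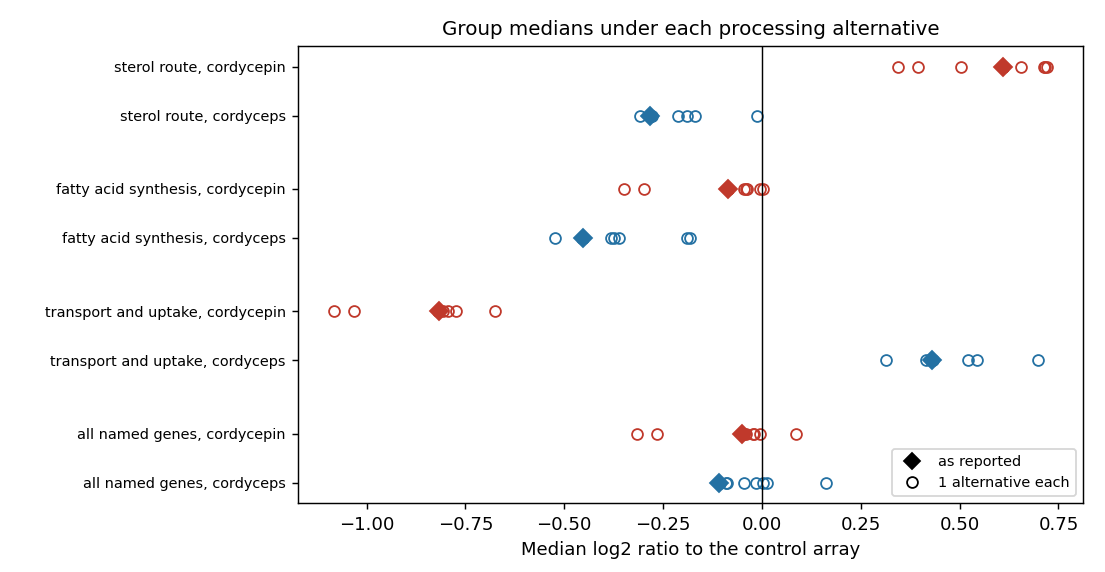
Median log2 ratio to the control array of the sterol route, fatty acid synthesis, transport and uptake, and all named genes, as reported (diamonds) and under each of 11 processing alternatives (open circles), for cordycepin and cordyceps, with 1 array per condition. The sterol route median after cordycepin lies between 0.34 and 0.72, and after cordyceps between -0.31 and -0.01.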

How the data were processed

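The authors deposited the Agilent Feature Extraction output of each array, whose processed intensity values had been background-subtracted and detrended within the array, and a value table that holds the mean processed intensity of each probe, neither scaled between arrays nor on a log scale. The paper's methods name Cy3 and Cy5 labels and GeneSpring. The deposited files hold a single Cy3 channel. Here log2 intensity was centred on the 75th percentile of each array, taken over its gene probes, with control spots and spots flagged as outliers left out and spots of a probe averaged. Probes were named through RefSeq transcript accessions. A ratio was measured where both arrays had at least 50% of a probe's spots well above background, and was a bound where 1 array did. Genes at least 2-fold from the control were called. The code was tested on simulated data with known changes. The genes and lists were chosen with earlier results of these data known. All genes of the 36 are named, and of the other lists those past 2-fold by a measured ratio, at most 5 a list and comparison. Some genes of these lists are not reported here. Python 3.11.15, pandas 2.3.3, numpy 2.4.6, R 4.3.3 and limma 3.58.1 (normexp, offset 50) were used. Alternatives changed 1 step at a time.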

Additional observations from a re-analysis of the deposited data

How the results depend on the processing

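Under the 11 alternatives that change the scaling, background, probe or spots, the sterol route median against the control ranged from 0.34 to 0.72 after cordycepin and from -0.31 to -0.01 after cordyceps, the fatty acid median from -0.35 to 0.00 and from -0.52 to -0.18, and the transport median from -1.08 to -0.68 and from 0.31 to 0.70. Of these the fatty acid median after cordycepin changed sign, with quantile normalization. Between the treated arrays, median scaling gave 0.48 for the sterol route, -0.11 for fatty acid genes and -1.73 for transport genes. Second probes exist for 5 genes, so they gave no group median. Counts depended on the settings. The shares of all named genes were counted only for the 75th percentile scaling, at 2-fold and 1.5-fold, so the other counts below have no such share beside them. With median scaling 4 genes were at least 2-fold higher and 5 lower after cordycepin, and 2 higher and 0 lower after cordyceps. Without scaling 5 were higher after cordycepin. With normexp background correction 1 was lower after cordycepin. With the median over the probes of a gene 1 was lower after cordycepin and 0 were higher after cordyceps. With the corner left out 1 was lower after cordycepin and 0 after cordyceps. With quantile normalization, or a 75th percentile taken only over probes detected on every array, 1 was lower after cordyceps. At 1.5-fold 15 were higher and 6 lower after cordycepin, and 2 higher and 7 lower after cordyceps. At 3-fold 2 were higher and 0 lower after cordycepin, and 0 higher and 0 lower after cordyceps. Causes were not tested. Of the 36 genes, 32 kept their sign after cordycepin under all 5 scaling and background alternatives. After cordyceps 30 showed no change of sign, among them SC5D, which had no ratio with median scaling or normexp. No paired analysis was possible because there was 1 array per condition. Dim probes (SC5D, MSMO1 and STARD4) limit the size of their ratios, and no value here holds the spread between cultures.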
